A study of Mus musculus with 16 samples.

Results

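Open chromatin of the liver was compared with that of white adipose tissue, the organ that makes and exports lipid and the organ that stores it. The comparison used 4 libraries of ATAC-Seq, in which a transposase cuts accessible DNA and the cut sites are sequenced, with 1 fed and 1 fasting library a tissue, out of 16 libraries of 8 organs. Regions were those the deposited peak lists gave at a q-value of 0.01 or below, each unique interval counted once. A liver-specific region was present in both liver libraries and overlapped by no listed peak of either white adipose library, and a white adipose-specific region was defined with the tissues exchanged. The rule gave 33382 liver-specific and 32063 white adipose-specific regions, 65445 of the 362041 merged regions of the 4 libraries, and both terms refer to this pair of tissues alone. A further 43662 regions were shared by the 4 libraries.

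All samples came from male C57BL/6 mice, obtained at 12 weeks of age, that were either fed (chow at will) or subjected to fasting for 24 h. Tissue of 3 mice of a state was pooled in equal parts into 1 library, so the fed liver and the fed white adipose came from the same mice, as did the fasting ones. The depot of the white adipose tissue was not given. Because each state supplied 1 library, the 2 libraries of a tissue differ in feeding state, and their spread holds both the state and the noise of a single library. An exact permutation test of 2 against 2 libraries cannot go below a two-sided p of 0.333, so each comparison is given as values in every library, with a call where the libraries of the 2 tissues did not overlap.

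Hepatocytes secrete most plasma proteins, assemble triglyceride and cholesterol into lipoproteins, make bile acids and release glucose and ketone bodies in fasting. White adipocytes store triglyceride in a single lipid droplet, break it down to fatty acids when insulin is low and secrete hormones such as leptin and adiponectin. Hepatocyte identity is held by the HNF4, HNF1, FOXA and C/EBP families of transcription factors, and adipocyte identity by PPARγ, the C/EBP family and EBF factors.

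Stretches of 200 bases around the summit are shown for 4 marker promoters, each with a peak in both libraries of its organ and in neither library of the other. Capitals mark matches on either strand to the motifs described further on, read from the GRCm38 genome.
Alb, chr5:90460831-90461030, + strand: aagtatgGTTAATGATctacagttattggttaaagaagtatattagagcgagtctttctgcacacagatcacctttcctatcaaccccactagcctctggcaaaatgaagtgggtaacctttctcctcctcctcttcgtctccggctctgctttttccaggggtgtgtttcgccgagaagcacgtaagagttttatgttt
Cyp7a1, chr4:6275783-6275982, + strand: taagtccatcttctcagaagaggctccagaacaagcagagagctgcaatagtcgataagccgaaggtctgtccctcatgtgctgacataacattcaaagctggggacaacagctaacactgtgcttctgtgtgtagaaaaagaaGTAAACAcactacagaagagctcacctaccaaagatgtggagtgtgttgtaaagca
Adipoq, chr16:23146449-23146648, + strand: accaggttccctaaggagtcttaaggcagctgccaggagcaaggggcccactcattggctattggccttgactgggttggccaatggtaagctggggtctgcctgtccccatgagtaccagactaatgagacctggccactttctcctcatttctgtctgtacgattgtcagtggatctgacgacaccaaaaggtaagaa
Lep, chr6:29059997-29060196, + strand: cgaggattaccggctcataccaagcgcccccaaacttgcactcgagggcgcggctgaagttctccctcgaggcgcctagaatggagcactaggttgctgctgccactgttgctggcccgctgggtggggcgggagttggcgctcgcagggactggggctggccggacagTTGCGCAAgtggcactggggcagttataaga
The Alb window held the HNF1 letters and the Cyp7a1 window the FOXA letters on the reverse strand. The Lep window held the C/EBP letters, while none of the motifs searched lay in the Adipoq window. Windows at Apoa1, Hnf4a, Fabp4 and Retn were also read and are not printed. Those of Apoa1, Hnf4a and Retn held none of the motifs, and that of Fabp4 held the AP-1 letters alone.

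Depth differed between the tissues. Under a peak, the local background most often stood at 2.80 and 2.82 tags in the fed and fasting liver, against 10.02 and 5.87 tags in the fed and fasting white adipose. Depth and tissue cannot be told apart in these 4 libraries, so values are also given "at equal depth", with the tags of each library scaled down to the lowest background and regions kept at a p below 1e-05. All 4 peak lists were capped at close to the same number of rows, and only the fed white adipose list ended before the q-value threshold was reached, at a −log10 q of 4.22. The libraries of a tissue covered the same bases more often than those of different tissues, with a Jaccard index of 0.452 for liver and 0.495 for white adipose, against 0.225 to 0.289 across tissues. The fed white adipose library also held peaks that the fasting one lacked or ranked lower. Of 8 genes of the epididymis, the duct beside which a male fat pad lies, Lcn5, Adam7, Crisp1, Spag11a and Ros1 had promoter peaks there and Rnase10 in every library, and the mean rank over the 8 genes was 54.2, against 14.5 in fasting white adipose and 11.4 and 13.7 in liver. Lcn8 and Lcn9 had no peak in any of the 4 libraries. The epithelial genes Krt7, Krt19 and Epcam ranked 88.6, 63.6 and 88.0 in fed against 0, 12.6 and 43.6 in fasting white adipose, and the macrophage gene Marco 82.5 against 0, all 4 singled out after their values were seen. The part of these peaks in the results was not tested.

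The marker promoters matched the labels, with 4 of 5 liver markers called higher in liver and 4 of 5 white adipose markers in white adipose, by the call defined further on. With summits within 3000 bp of a start the numbers were 3 and 1. Promoters were compared by rank, the percentile of the strongest peak within 1000 bp of a start of the gene among all peaks of its library by p-value, with 0 for no peak. The promoter of Alb, which encodes serum albumin, ranked 85.5 in fed and 86.7 in fasting liver, and had no peak in either white adipose library. Its peak held 46 tags at the summit in fed liver, where 10.3 were expected, and 91 against 18.8 in fasting liver. The promoter of Adipoq, which encodes adiponectin, had no peak in liver and ranked 86.0 and 84.4 in the fed and fasting white adipose libraries. Its peak held 182 tags against 38.1 expected in fed and 93 against 24.3 in fasting white adipose. Across the other 6 tissues the Alb promoter had a peak in fasting kidney alone, at rank 49.6, and the Adipoq promoter had peaks in brown adipose alone, at 85.9 fed and 89.6 fasting.

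A promoter was called higher in a tissue where both of its libraries ranked it at least 20 points above both libraries of the other tissue. Of 21938 protein-coding genes, 860 (3.92%) were called higher in liver and 899 (4.1%) higher in white adipose, and 13701 had a promoter peak in all 4 libraries. At equal depth the counts were 1050 and 766, and with the same p threshold but no scaling 621 and 1475. With the fasting libraries alone they were 1664 and 1789. Among the 13 function lists, the share of genes called was highest for hepatocyte factors, secreted proteins and bile acid genes on the liver side, and for hormones on the adipose side.

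Among 15 hepatocyte transcription factors, 11 were called higher in liver and none in white adipose. Hnf4a, a nuclear receptor that drives much of the hepatocyte programme, ranked 99.3 in fed and 99.0 in fasting liver without a white adipose peak, the widest gap of all promoters. With fold enrichment as the basis of the rank, 8 of the 15 were called. Foxa2, a forkhead factor of liver development, ranked 86.1 and 90.1, again without a peak in white adipose. Nr5a2, a nuclear receptor of bile acid and cholesterol metabolism, ranked 91.7 and 97.0 in liver against 60.3 and 43.6 in white adipose, and Nr1h4, the bile acid receptor FXR, 86.3 and 88.2 against 0 and 48.2. Foxa1, Prox1, Nr0b2, Nr1i3 and Nr1i2 were also among the 11. Cebpa was open in both organs, at 97.7 and 96.0 in liver and 94.7 and 95.6 in white adipose. Foxa3 was open in both as well, at 97.7 and 98.9 against 98.8 and 98.9, and Onecut1 and Creb3l3 were the others not called, though both were called at equal depth.

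Of 14 hepatocyte secreted proteins found in the annotation, 11 were called higher in liver. Fgb, Fgg, F2, F9 and C9, which encode fibrinogen chains, coagulation factors and a complement component, had liver ranks between 81.8 and 97.0 and no white adipose peak. Fga ranked 98.5 and 98.4 in liver, against 66.1 in fed and 0 in fasting white adipose. Hp, which encodes haptoglobin, was at 85.3 and 96.8 in liver and 89.1 and 90.8 in white adipose, so the tissues overlapped. Ttr, which carries thyroxine and retinol-binding protein, missed the call because fed white adipose ranked it 80.9 beside 0 in fasting, while liver stood at 93.0 and 93.3.

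Calls covered part of the lipoprotein list. The apolipoprotein genes Apoa1, Apoa2, Apoa4 and Apoa5 ranked between 89.1 and 97.6 in liver and had no white adipose peak, and 8 of the 14 genes of the list were called higher in liver. Apoa1, of high-density lipoprotein, stood at 97.6 fed and 96.2 fasting. Lcat, which esterifies plasma cholesterol, ranked 98.9 and 96.6 against 71.6 and 41.4. Mttp, which loads lipid on apolipoprotein B, was as high in white adipose (99.2 and 99.7) as in liver (98.3 and 98.8). Apob ranked 93.2 and 96.6 in liver and 80.9 and 89.7 in white adipose, and was not called. Apoc3, Apoe and Apoh were not called either, with Apoc3 at 92.3 and 92.8 in liver against 73.9 and 93.9.

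Of 12 genes of bile acid synthesis and transport, 10 were called higher in liver. Cyp7a1, the rate-limiting enzyme of bile acid synthesis, ranked 90.2 in fed and 91.3 in fasting liver and had no peak in white adipose. Cyp8b1, Baat, Slc10a1 and Slco1b2 showed the same absence, with liver ranks from 79.9 to 93.3. Abcb11, the bile salt export pump, ranked 94.5 and 95.6 in liver against 4.71 and 0. Abcg5 and Abcg8, which export sterols and share a divergent promoter, had the same values, 96.4 and 97.4 against 4.71 and 22.8, and count as 1 measurement. Cyp27a1 ranked 95.5 in both liver libraries and 86.7 and 91.9 in white adipose.

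Glucose and fuel genes were mixed. Of 11 genes of gluconeogenesis and glucose output, 6 were called higher in liver. G6pc, which encodes glucose-6-phosphatase, ranked 88.1 and 88.0 in liver, and Slc2a2, the hepatic glucose carrier, 94.3 and 94.9, both without a white adipose peak. Pck1, which also serves glycerol synthesis in fat, ranked 94.2 and 86.4 in liver and 92.1 and 93.2 in white adipose. None of 12 genes of ketone bodies and fatty acid oxidation was called in either direction, and 10 of them had a peak in all 4 libraries. Over all protein-coding genes 3.92% and 4.1% were called, and 62.5% had a peak in all 4. Cyp4a10 and Fgf21 of the ketone and oxidation list were called higher in liver at equal depth. Fgf21, a fasting hormone, stood at 69.6 fed and 90.2 fasting in liver and at 1.86 and 65.5 in white adipose.

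**Figure D1:**
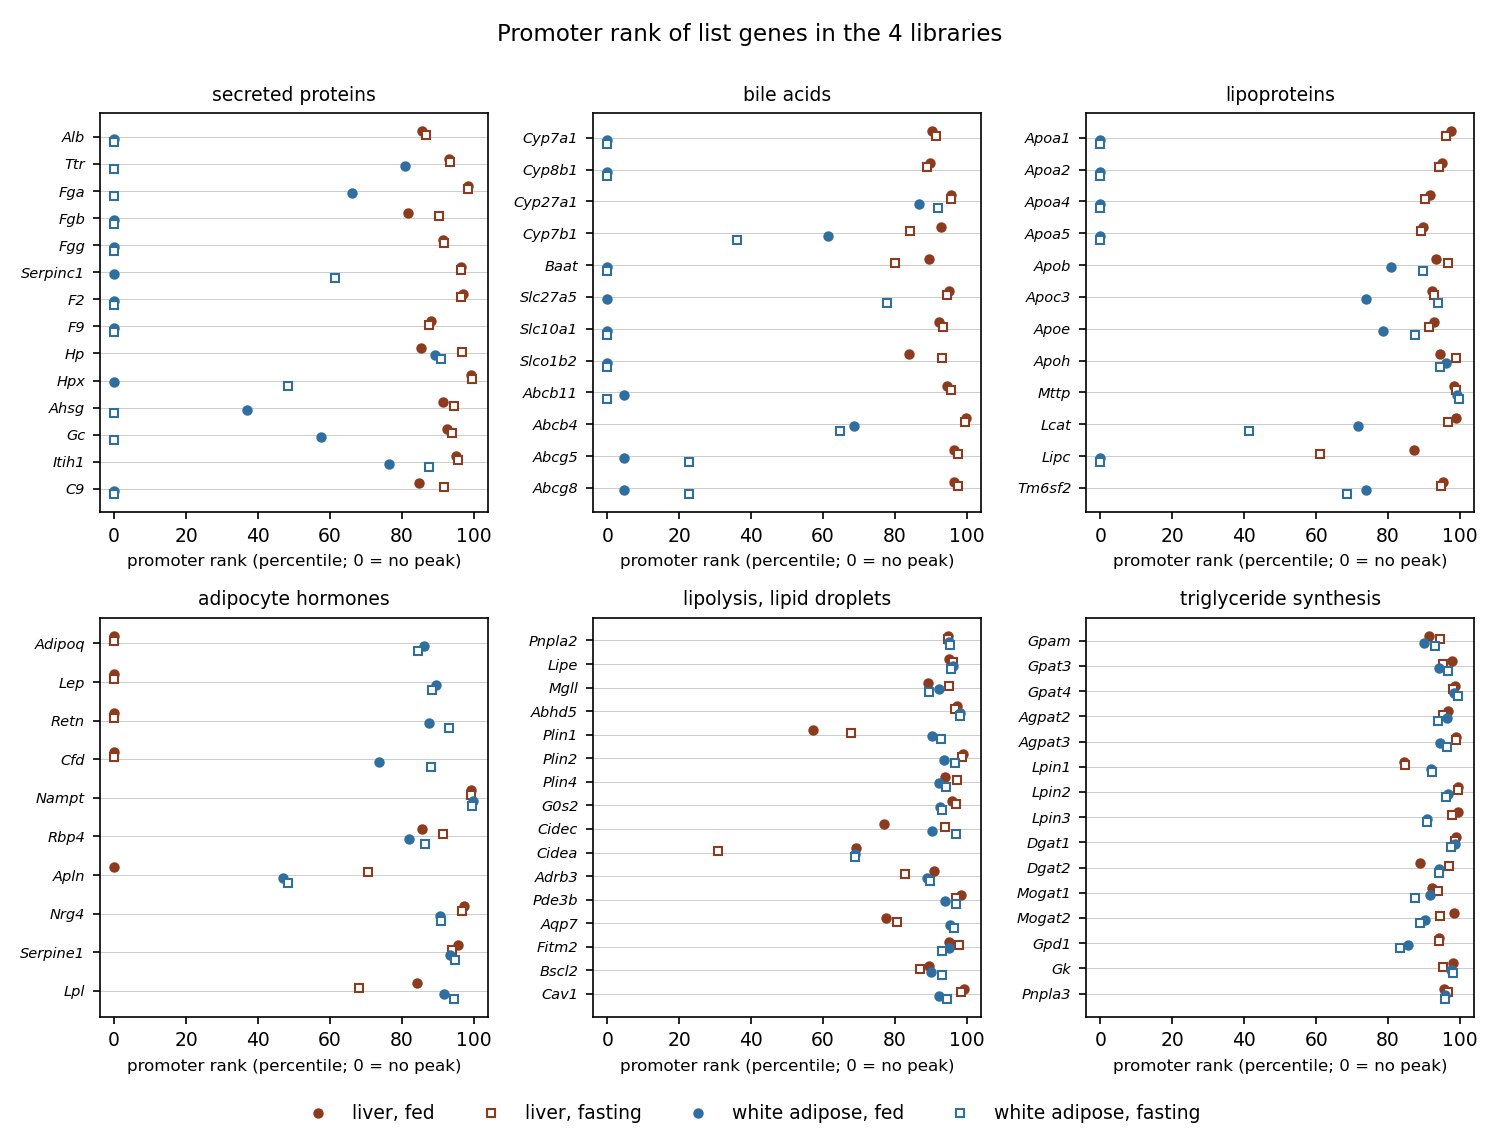
Promoter rank (percentile within a library, horizontal axis, 0 for no peak) of genes of 6 lists in fed (filled circles) and fasting (open squares) liver and white adipose libraries. Secreted protein, bile acid and lipoprotein genes often sit at 0 in white adipose, Adipoq, Lep, Retn and Cfd sit at 0 in liver, and all 15 triglyceride synthesis genes lie above 83 in every library.

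On the adipose side calls fell on hormone genes more often than on the lipid droplet machinery. Of 10 adipocyte hormones and secreted proteins, 4 were called higher in white adipose and none in liver, and with summits within 3000 bp of a start in place of the promoter window 2 were called. Lep, which encodes leptin, ranked 89.5 and 88.4 in white adipose, with 190 and 79 tags at the summit against 31.5 and 13.1 expected. Retn, which encodes resistin, ranked 87.5 and 93.0, and Cfd, which encodes adipsin, 73.5 and 88.2. These 3 promoters and that of Adipoq had no peak in either liver library. Lpl, the lipase that frees fatty acids from lipoproteins, ranked 91.7 and 94.5 in white adipose and 84.1 and 68.0 in liver, a gap too small for a call.

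Of 12 adipocyte transcription factors only Ebf1 was called, at 93.6 and 95.2 in white adipose against 67.2 and 49.6 in liver, and none was called when ranked by fold enrichment. Pparg, the regulator on which fat cells depend, was open at a start in both organs, at 91.9 and 93.1 in white adipose and 96.3 and 92.5 in liver. Every gene of this list had a promoter peak in all 4 libraries, as had 62.5% of all protein-coding genes. Of 16 genes of lipolysis and lipid droplets, Plin1, which coats the adipocyte droplet, was the only call, at 90.2 and 92.7 in white adipose against 57.3 and 67.7 in liver. The list held 0 calls when ranked by fold enrichment or with summits within 3000 bp. Pnpla2 and Lipe, the lipases that open triglyceride breakdown, ranked between 94.6 and 96.2 in all 4 libraries. Aqp7, which lets glycerol out of the cell, stood at 95.3 and 96.4 against 77.6 and 80.5, and was called at equal depth.

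Different members of the fatty acid binding family had open promoters in the 2 organs. Fabp1, the liver fatty acid binding protein, ranked 85.0 in fed and 86.3 in fasting liver with no white adipose peak, and Fabp4, the adipocyte member, 83.6 and 91.7 in white adipose with no liver peak. Fabp5 was open in both, at 91.3 and 85.7 in liver and 95.8 and 96.3 in white adipose. Slc27a2, a liver fatty acid transporter and activating enzyme, ranked 99.4 and 99.5 against 73.1 and 48.2, whereas Slc27a4 lay above 97 throughout. Cd36, a fatty acid carrier, ranked 92.1 and 94.4 in white adipose and 79.7 and 85.6 in liver, and was not called. Of the 18 genes of uptake and binding, 3 were called higher in liver and 1 in white adipose, or 2 and 0 with summits within 3000 bp. None of 14 genes of fatty acid synthesis and none of 15 of triglyceride synthesis was called, and every gene of both lists had a peak in all 4 libraries. Over all protein-coding genes 3.92% were called higher in liver and 4.1% in white adipose, and 62.5% had a peak in all 4 libraries. Lists this short cannot tell an absence of calls from such shares. The triglyceride genes included Dgat1 and Dgat2, which add the last fatty acid, at 98.9 and 98.7 against 98.6 and 97.5 for Dgat1. Of 12 insulin and glucagon genes, Igf1 and Igfbp1 were called higher in liver. Igfbp1, a binding protein of insulin-like growth factors, ranked 93.4 and 97.3 against 10.998 and 0, and Igf1 88.7 and 86.0 against 40.1 and 65.1.

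In each state alone, 1 library was set against 1. Of all 21938 protein-coding genes, 1859 were called higher in liver and 1952 in white adipose in the fed libraries. The fasting libraries gave 1664 and 1789, and the list counts were not tested against these shares. In the fasting libraries 12 hepatocyte factors, 12 secreted proteins, 8 lipoprotein and 10 bile acid genes were called higher in liver, and 5 adipocyte hormones were called higher in white adipose, with 1 higher in liver. In the fed libraries the numbers were 12, 11, 8, 11 and 5, with no hormone higher in liver. Ketone and fatty acid oxidation genes, none of which was called over both states, had 2 calls for liver in the fed and 3 in the fasting libraries. Of the uptake and binding genes 2 were called higher in white adipose in the fed and 3 in the fasting libraries, and 4 higher in liver in each. Fatty acid synthesis had 1 call for white adipose in fasting, and triglyceride synthesis had none in either state.

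Specific regions were next counted around genes, beyond the promoters. Of all protein-coding genes, 67.2% had a liver-specific region with its summit within 50 kb of a start and 66.5% a white adipose-specific one, so presence alone separated little, and the number per gene is described. The mean over all genes was 2.48 liver-specific and 2.35 white adipose-specific regions, or 2.68 and 1.08 at equal depth. Genes with several distant starts collect more, and neighbours share regions.

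Around the 15 hepatocyte factors lay 184 liver-specific and 31 white adipose-specific regions, means of 12.3 and 2.07 per gene. Nr5a2 had 26 and Prox1, a factor of hepatocyte and lymphatic cells, 21 liver-specific regions, and neither had a white adipose-specific one. The secreted proteins had means of 12.1 and 1.14, with 22 and 0 at Alb. The neighbours Fga, Fgb and Fgg had 24, 25 and 23 of the list's 169 liver-specific regions, and a region they share counts for each. The same holds for Abcg5 and Abcg8, with 14 each, among the bile acid genes. Bile acid genes had 11.7 and 1.25, with 20 and 0 at Abcb4, the phospholipid pump of the bile canaliculus. These contrasts held at equal depth, with means of 12.7 and 1.07 for the factors, 11.7 and 0.286 for the secreted proteins and 10.3 and 0.583 for the bile acid genes. The genes of gluconeogenesis and glucose output had means of 7.55 and 4.18 as deposited. Among them G6pc had 10 liver-specific and 12 white adipose-specific regions and Pck1 7 and 8, or 10 and 6 and 7 and 4 at equal depth.

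The adipocyte factors had 65 liver-specific and 125 white adipose-specific regions. The most lay at Zfp423, an early regulator of fat cell precursors, with 20 white adipose-specific and 2 liver-specific, then Ebf1 with 18 and 2, and Pparg with 17 and 5. At equal depth the sums became 73 and 52, and the order of the tissues turned. With the same p threshold and no scaling they were 55 and 130. At equal depth Zfp423 had 12 and 2 and Ebf1 7 and 2, whereas Pparg had 1 and 2. The lipolysis list had 94 white adipose-specific and 47 liver-specific regions as deposited and 54 and 65 at equal depth, and the hormones 59 and 27, then 31 and 29. The threshold without scaling gave 106 and 49 for lipolysis and 69 and 24 for the hormones. Lep had 9 white adipose-specific regions as deposited and 7 at equal depth, with 1 liver-specific region in each case. Adipoq went the other way, with 5 white adipose-specific and 7 liver-specific regions as deposited and 3 and 6 at equal depth. Set against the mean of all genes at equal depth, the white adipose-specific means of 4.33 for the factors, 3.10 for the hormones and 3.38 for lipolysis stood above 1.08, and the liver-specific means of 6.08, 2.90 and 4.06 also stood above 2.68.

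The lipid synthesis genes, none of whose promoters reached the gap for a call, had more specific regions than the average gene from both organs. The triglyceride list had means of 6.73 liver-specific and 5.27 white adipose-specific regions, and the fatty acid synthesis list 6.50 and 4.43. Elovl6, which lengthens palmitate, had 16 liver-specific regions and 1 white adipose-specific, and Acacb, which makes the malonyl-CoA that restrains fatty acid oxidation, 3 and 20. Dgat2 had 16 and 5, and Gpam, which starts glycerolipid synthesis, 11 of each. At equal depth the white adipose-specific numbers were 0 at Elovl6, Dgat2 and Gpam and 9 at Acacb.

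**Figure D2:**
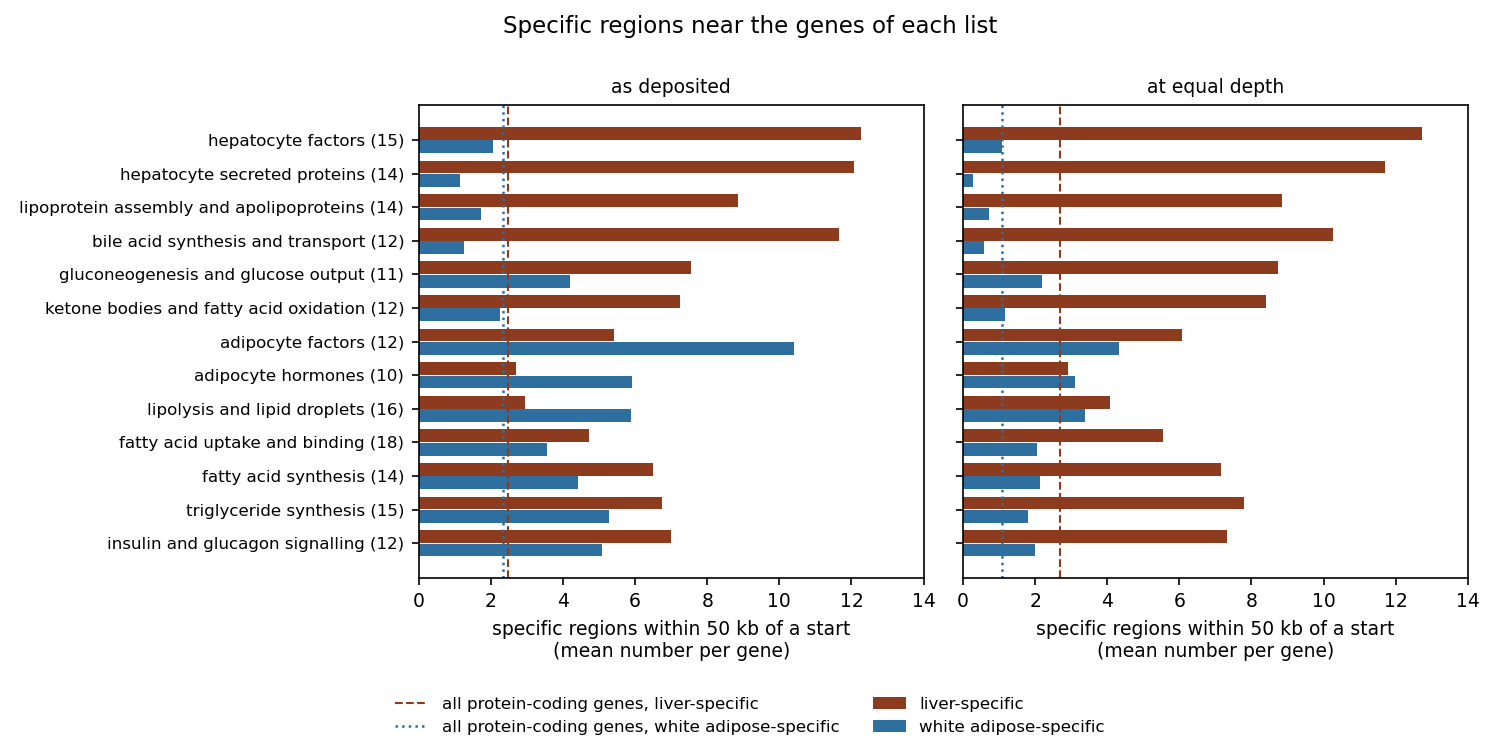
Mean number of liver-specific and white adipose-specific regions within 50 kb of a start per gene (bars, horizontal axis) for 13 gene lists, with the number of genes in brackets and dashed and dotted lines for the mean of all protein-coding genes. Hepatocyte factors reach 12.3 liver-specific regions against 2.07 white adipose-specific ones, and the lead of white adipose at adipocyte factors (10.4 against 5.42) is absent at equal depth (4.33 against 6.08).

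The genes with the most liver-specific regions nearby were Ttc39c with 38, Nav2 with 34, Foxp1 with 30 and Rapgef4 with 27. Cps1, the first enzyme of the urea cycle, Fgd6 and Nr5a2 had 26 each, and Fgb, Nedd4l and Podn 25 each. Cps1 and Nr5a2 had no white adipose-specific region, while Foxp1 had 21. Near white adipose the leading genes were Mast4 with 32, Tenm4 with 31, Arhgap26 with 30, and Ablim1 and Tgfbr3, a co-receptor of TGF-β, with 27 each. Fry, Hoxc5, Slc1a3 and Zbtb20 had 26 each and Col4a2, a basement membrane collagen, 25. Hoxc5 belongs to a cluster of body position genes, and the neighbouring Hoxc4 had 25.

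Beside Hnf4a, the liver promoters with the widest gaps were Dpys (pyrimidine breakdown), Pla2g12b, Proz, Serpina10, Ugt2b35, Cyp2j5 and Hfe2. All 8 had no white adipose peak, and their liver ranks ran from 97.1 to 99.3. Proz and Serpina10 encode protein Z and the inhibitor that works with it in clotting, and Hfe2 encodes hemojuvelin, which acts in iron control. Dpys ranked 98.9 and 98.8. The white adipose promoters with the widest gaps were Cd300lg, Pth2, Apol6, Stc2, Ppp1r1a, Acta1, Aoc3 and Bcl2l10, none with a liver peak, at ranks from 92.5 to 97.5. Cd300lg, a receptor of capillary endothelium, ranked 96.3 and 97.5, and Aoc3, an amine oxidase abundant on fat cells, 92.9 and 92.7. Acta1, the actin of skeletal muscle, ranked 93.1 and 94.4, while Myod1, a defining factor of muscle precursors, had no peak in any of the 4 libraries. Of the other muscle genes listed, Actn3 ranked 97.1 and 97.2 and Ckm 88.4 and 91.2 in white adipose. In liver Actn3 stood at 62.1 and 83.4 and Ckm at 89.6 and 84.3. Tnnt3 ranked 36.2 and 67.0 in white adipose without a liver peak, and Myh4 67.2 and 77.6 in liver without a white adipose one.

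The strongest specific regions were distal for the most part. The highest liver-specific region, chr1:24613150-24616169, at ranks above 99.9 in both states, consisted of sequence present in the mitochondrial genome, with 100% of its 31-base words found there. Reads of the nuclear copy and of mitochondrial DNA cannot be told apart there, and no other specific region of either tissue shared at least 50% of its words with mitochondrial DNA. Those that followed included regions in introns of Urb1 (chr16:90779824-90780256), Tns3 and Mylk and between genes near Rab32, at ranks of 99.6 or above. Ranks as high were held by an intergenic region 673414 bp from its nearest protein-coding start, of Nectin3. They were also held by a region in an exon of Abcb4 167 bp from a start (chr5:8928444-8928841). The Abcb4 region ranked 99.8 and 99.6. The strongest white adipose-specific region, chr15:77036516-77038376, lay in an intron of Mb, the gene of myoglobin, 7829 bp from the start of Apol6, at ranks of 97.2 and 96.7. The others of the first 8 lay near Map6, Dab2ip, Plch2, Nid1, Bach2 and Kif6 and 107244 bp from Prok2, at ranks between 93.4 and 98.2.

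Within liver the median of the mean rank of the liver-specific regions over the states was 69.2, and 3753 (11.2%) averaged at least 90. Within white adipose the median was 53.6, and 776 (2.42%) averaged at least 90. The lists differ in length, with 239804 and 217821 regions in fed and fasting liver and 156687 and 178341 in white adipose, so these percentiles are not on a common scale. The shares within 3000 bp of a start were alike, 26.2% (exact binomial 95% interval 25.8 to 26.7, counting error only) and 25.9% (25.5 to 26.4), against 49.6% of shared regions. Introns held 57.2% and 55.4% of summits and intergenic DNA 34.1% and 35.1%. The median width was 255 bp for liver-specific, 331 bp for white adipose-specific and 566 bp for shared regions. The median absolute difference of rank between the states was 15.96 points in white adipose and 9.23 in liver. In white adipose 73.2% of the regions ranked higher in fasting, and in liver 51.4%. The 2 white adipose lists differ in length and in the q-value at which they end, and the part of this in the difference was not tested. Just inside the threshold, the weakest liver-specific region lay near Serpind1 with a −log10 q of 2.00001, and the nearest excluded one, near Mtmr11, had 1.99979. In white adipose they lay near Pwwp2b (2.00016) and Parp1 (1.99991).

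The number of white adipose-specific regions moved with the scaling of depth. With the 4 libraries at equal depth, also for the absence from the other tissue, 34161 regions were liver-specific and 14907 white adipose-specific. The same p threshold without the scaling gave 28103 and 34401. With the fasting libraries alone 93318 and 80453 were found. The other tissue left 35.3% of 94463 liver candidates and 34.8% of 92192 white adipose candidates without a peak.

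Among the shared regions, 2956 (6.77%) ranked at least 20 points higher in both liver libraries and 1015 (2.32%) in both white adipose libraries. At equal depth 327 and 431 passed, so the order of the tissues turned, whereas the p threshold without scaling gave 2219 and 511. In the fasting libraries alone 9435 and 7443 passed. The 4 largest gaps on the liver side lay at the start of Abcc6, a hepatic transporter, in introns near Srd5a1 and Upb1 and near the start of Hamp, which encodes the iron hormone hepcidin. The region at Hamp, chr7:30943787-30944770, ranked 90.5 and 91.6 in liver and 1.88 and 18.02 in white adipose, and that at Abcc6 98.0 and 97.5 against 12.1 and 18.1. On the white adipose side they lay near Fermt2, A830018L16Rik, Cars and Lpcat2. The Fermt2 region ranked 87.6 and 93.9 against 17.1 and 24.4 in liver, and the Lpcat2 region, near a phospholipid remodelling enzyme, 95.3 and 96.6 against 34.0 and 24.1.

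The 12 libraries of the other 6 organs, which had no part in the choice of regions, placed the members of the 2 organs differently. A liver-specific region was also in the regions of both states of kidney in 32.6% (10875 regions), of lung in 13.6%, of muscle in 8.43%, of spleen in 7.71%, of brown adipose in 7.05% and of heart in 4.86%. White adipose-specific regions were in brown adipose in 47.9% (15344), in muscle in 33.0%, in lung in 30.97%, in kidney in 20.3%, in heart in 18.8% and in spleen in 15.5%. Kidney was thus the only one of the 6 that held a larger share of the liver-specific regions. Among all regions present in both states of an organ, before the other organ was considered, kidney held 64.0% of the liver ones and 55.9% of the white adipose ones. Brown adipose held 51.3% and 67.7%, lung 55.4% and 62.2%, muscle 49.0% and 58.9%, heart 41.8% and 47.3%, and spleen 42.5% and 45.7%. The specific regions lay below these shares in each of the 6 organs, and the order of liver and white adipose was the same before the exclusion. No listed peak of any of the 12 libraries touched 10701 (32.1%) of the liver-specific and 2982 (9.30%) of the white adipose-specific regions. The depth of the other organs and of the liver and white adipose libraries was not separated from these shares. The median widths of the 2 sets, 255 and 331 bp, differed as well. The part of depth and width in the shares was not tested.

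**Figure D3:**
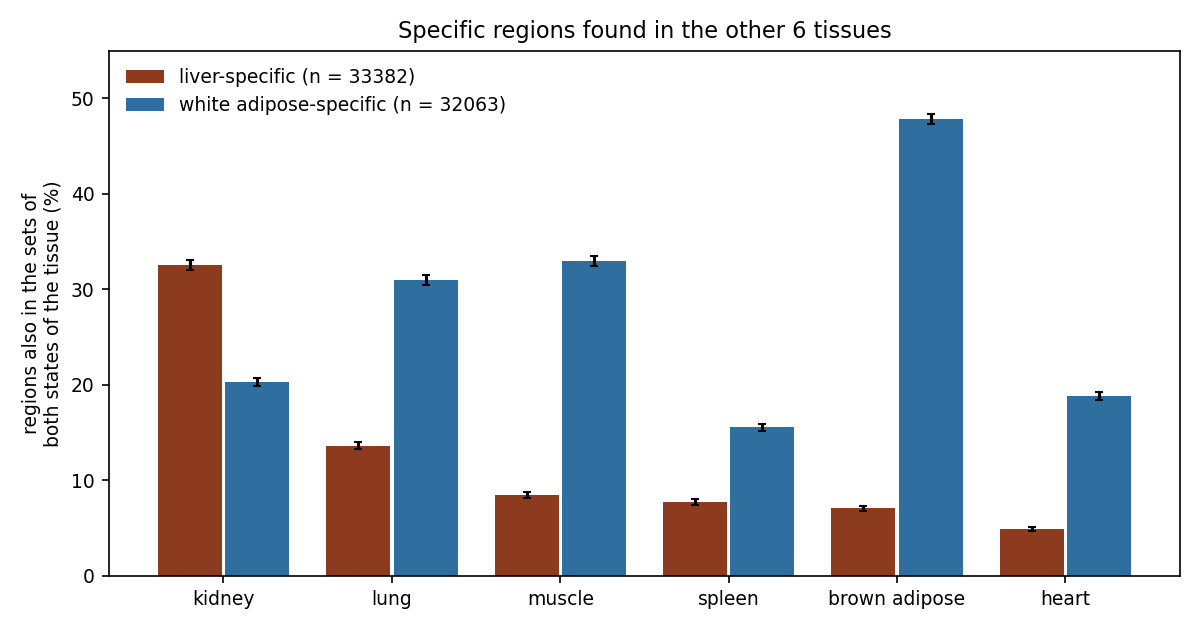
Percent of liver-specific and white adipose-specific regions (vertical axis) that overlapped a region of both the fed and the fasting library of each other organ, with exact binomial 95% intervals for counting error only. Kidney held 32.6% of the liver-specific and 20.3% of the white adipose-specific regions, and brown adipose 7.05% and 47.9%.

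Sequence at the summits, also unused by the rule, separated the 2 sets. The 200 bases around each strongest summit were searched on both strands for HNF4 (CAAAGTCCA), HNF1 (GTTAATNAT), FOXA (TGTTTAC), C/EBP (TTGCNNAA), EBF (TCCCNNGGG), AP-1 (TGANTCA), ETS (CCGGAAGT) and CTCF (CCAGGGGGC). The search also covered NFI (TTGGC and GCCAA with 5 bases between) and a PPAR-type direct repeat (AGGNCA repeated with 1 base between), for 10 motifs in all. A match describes letters and is not a bound site.

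The HNF4 letters lay in 2.33% (interval 2.17 to 2.498) of liver-specific regions, in 0.221% of white adipose-specific ones and in 0.592% of all merged regions, a ratio between the organs of 10.5. HNF1 followed with 2.28% against 0.271%, and 0.687% of all regions. FOXA stood at 6.19% against 2.39% and 3.08%, and the direct repeat at 1.61% against 0.558% and 0.697%, a motif that HNF4 and PPAR proteins can both bind. HNF4 and the direct repeat occurred together in 3 of the 33382 liver-specific windows. Where the patterns align, the HNF4 letters have T and the repeat needs G. A single aligned site cannot match both, so this count does not show that the motifs mark separate sites.

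The order turned for C/EBP, EBF, AP-1, ETS and CTCF. C/EBP lay in 17.4% of white adipose-specific and 12.4% of liver-specific regions against 10.2% of all regions, above the background in both organs. EBF lay in 6.89% against 2.68% and 4.07%, and AP-1 in 10.99% against 7.33% and 7.65%. ETS and CTCF were below their shares of shared regions in both specific sets, with 0.231% and 0.321% against 2.12% for ETS and 0.231% and 0.412% against 2.09% for CTCF. NFI was too rare to compare, with 0.0468% of regions or fewer in each set.

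The order of the organs was the same away from promoters and within a range of base composition. Mean GC was 48.5% in liver-specific and 49.7% in white adipose-specific windows. Among windows of 45 to 50% GC, HNF4 stood at 2.51% and 0.203%, and EBF at 1.87% and 5.69%. In regions more than 3000 bp from a start HNF4 stood at 2.38% and 0.223%, and EBF at 2.55% and 6.90%. At equal depth the shares were 2.25% and 0.241% for HNF4, 13.1% and 19.8% for C/EBP, and 2.75% and 8.09% for EBF.

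**Figure D4:**
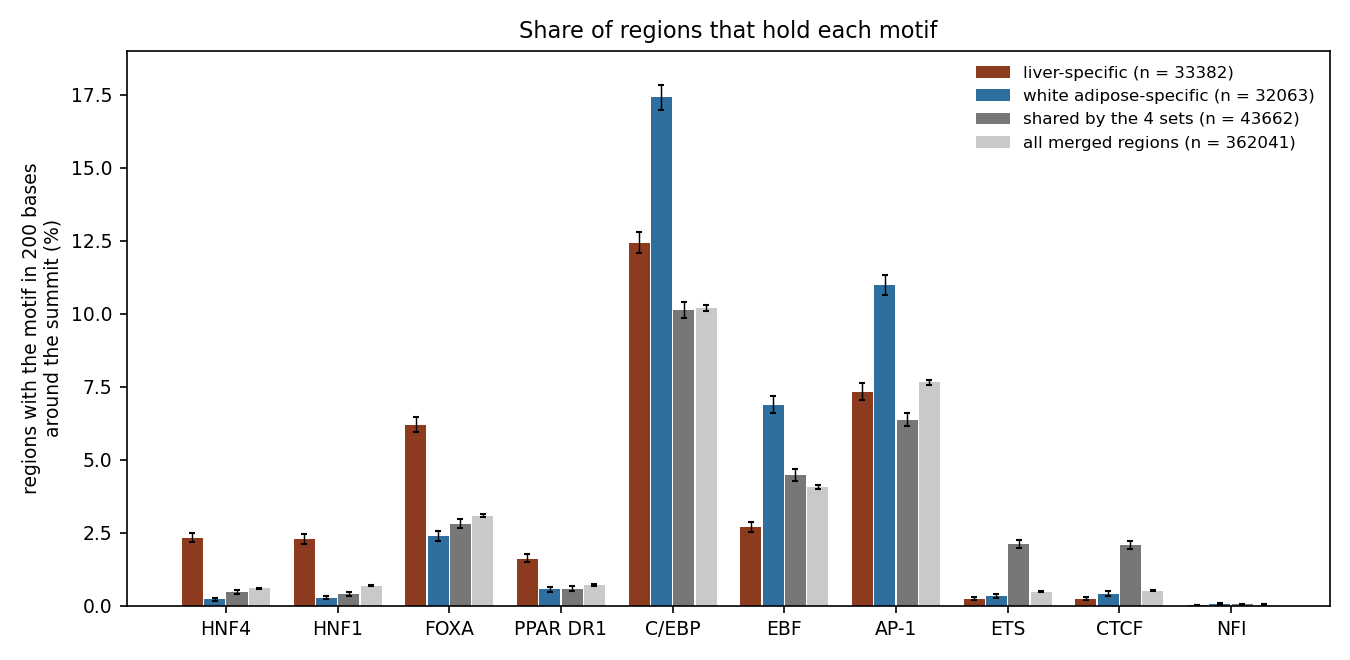
Percent of regions (vertical axis) with each of 10 motifs in the 200 bases around the summit, for liver-specific, white adipose-specific, shared and all merged regions, with exact binomial 95% intervals for counting error only. HNF4, HNF1, FOXA and the direct repeat are highest in liver-specific regions, C/EBP, EBF and AP-1 in white adipose-specific regions, and ETS and CTCF in shared regions.

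Members of higher rank held more of these letters. With the liver-specific regions put by rank into 4 groups of equal size, HNF4 went from 1.22% in the lowest group to 3.51% in the highest, HNF1 from 0.851% to 3.94% and FOXA from 4.71% to 7.88%. Among the white adipose-specific regions C/EBP went from 13.3% to 21.3% and EBF from 5.98% to 8.60%. EBF in liver-specific regions stood at 2.95% in the lowest and 2.77% in the highest group.

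The letters also followed the other organs in which a region was found. Liver-specific regions that were also kidney regions held HNF4 in 4.34% (3.96 to 4.74) and HNF1 in 4.71%, against 1.58% and 1.32% of those in no other organ. Those that were also lung regions held FOXA in 8.93% (8.11 to 9.79), against 6.42% of those in no other organ, and HNF4 in 0.948%. White adipose-specific regions that were also brown adipose regions held EBF in 9.10% (8.65 to 9.56) and C/EBP in 18.4%, and those in no other organ held EBF in 5.16% and C/EBP in 21.3%. AP-1 was at 13.96% in those also found in heart, 13.4% in muscle and 10.5% in no other organ. A region found in several organs counts in each.

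**Figure D5:**
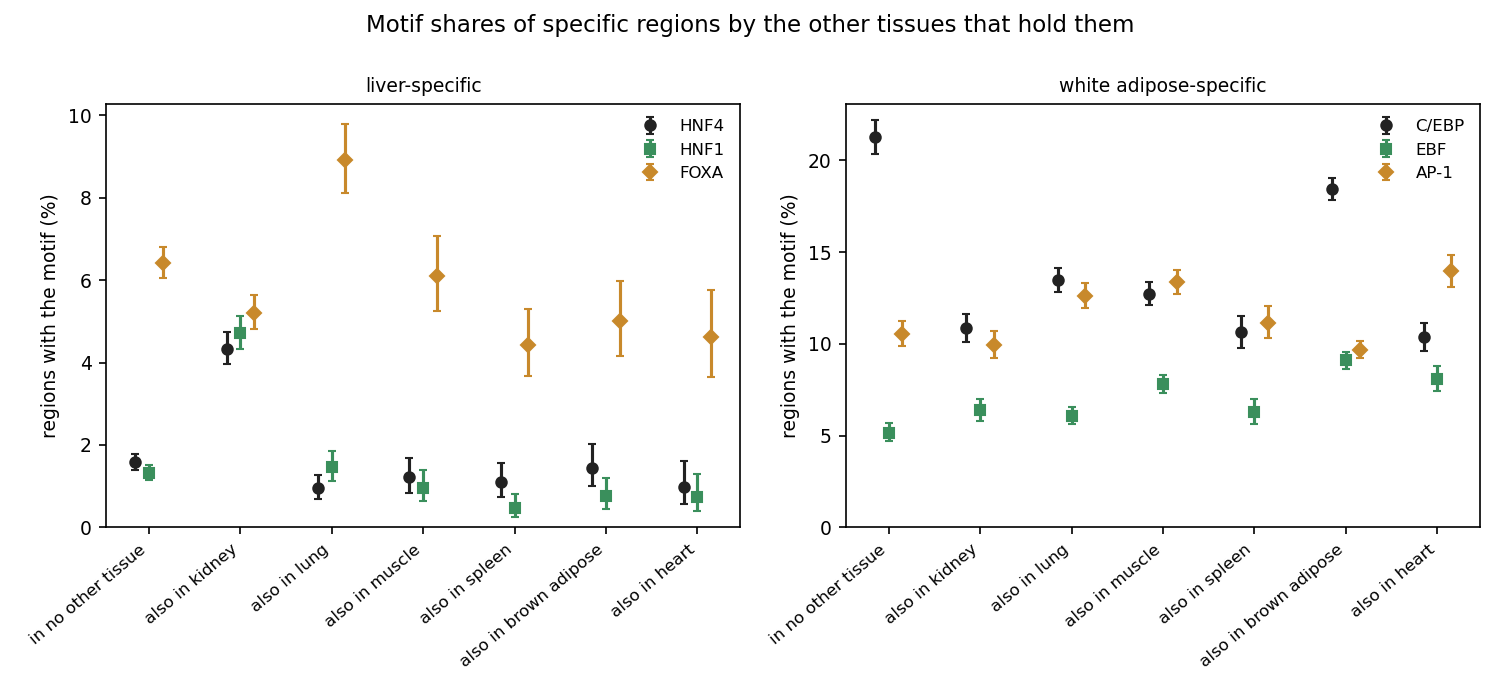
Percent of liver-specific regions with HNF4, HNF1 and FOXA letters (left) and of white adipose-specific regions with C/EBP, EBF and AP-1 letters (right), by the other organ that also held the region in both states, with exact binomial 95% intervals for counting error only. HNF4 and HNF1 are highest in regions also found in kidney, FOXA in those also found in lung, and EBF in those also found in brown adipose.

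Examples of the specific regions are shown, each the strongest of its tissue with HNF4, HNF1, the direct repeat, EBF or C/EBP, chosen after the shares were known. The strongest with FOXA, at Urb1, and with AP-1, near Apol6, are not printed. The first 3 are liver-specific and the others white adipose-specific.
Frg1, chr8:42187177-42187376, + strand: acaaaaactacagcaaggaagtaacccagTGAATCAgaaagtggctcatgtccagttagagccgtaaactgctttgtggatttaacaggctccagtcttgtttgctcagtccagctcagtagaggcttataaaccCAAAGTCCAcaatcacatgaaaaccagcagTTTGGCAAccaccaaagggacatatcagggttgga
Armc9, chr1:86176044-86176243, + strand: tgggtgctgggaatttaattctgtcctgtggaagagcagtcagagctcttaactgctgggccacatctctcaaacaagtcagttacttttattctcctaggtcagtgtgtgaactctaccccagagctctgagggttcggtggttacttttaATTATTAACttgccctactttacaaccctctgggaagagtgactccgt
Aqp1, chr6:55324362-55324561, + strand: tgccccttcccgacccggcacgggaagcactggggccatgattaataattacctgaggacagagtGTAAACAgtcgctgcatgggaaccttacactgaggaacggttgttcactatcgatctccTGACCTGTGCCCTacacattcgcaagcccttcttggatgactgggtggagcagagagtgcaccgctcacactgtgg
Prok2, chr6:99833536-99833735, + strand: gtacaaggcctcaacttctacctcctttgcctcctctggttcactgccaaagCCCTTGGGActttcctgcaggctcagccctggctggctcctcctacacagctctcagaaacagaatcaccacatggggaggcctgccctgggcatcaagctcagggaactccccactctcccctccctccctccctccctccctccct
Bach2, chr4:32179913-32180112, + strand: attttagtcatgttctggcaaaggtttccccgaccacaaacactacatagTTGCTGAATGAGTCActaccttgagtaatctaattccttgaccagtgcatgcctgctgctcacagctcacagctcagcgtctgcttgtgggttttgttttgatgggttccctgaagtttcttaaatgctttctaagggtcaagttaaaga
Names are the nearest protein-coding genes. The region nearest to Frg1 was intergenic and 770203 bp from that gene, at ranks of 99.7 and 99.4, and its window held the AP-1 and C/EBP letters as well. The Armc9 region was intronic at 99.6 and 99.3, and the Aqp1 region intergenic at 98.3 and 99.6, with FOXA letters beside the repeat. The Prok2 region, between genes, ranked 96.4 and 96.3 in white adipose. In the Bach2 region, at 93.4 and 98.2, the C/EBP and AP-1 letters stood next to each other with no base between.

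Other cells contribute to both organs, and in bulk tissue more cells of a type and more open chromatin per cell cannot be told apart. Of 6 genes of fibroblasts and adipose progenitors, Dpt, Dcn and Ly6a were called higher in white adipose, where the mean rank of the list was 60.5 fed and 74.3 fasting, against 32.7 and 40.9 in liver. Pdgfra was open in all 4 libraries. Of the 6 endothelial genes Kdr was called higher in white adipose (79.9 and 81.2 against 58.7 and 51.7), but not at equal depth. No macrophage, lymphocyte, mesothelial or brown adipocyte gene was called over both states. In the fasting libraries alone 4 macrophage, 2 lymphocyte, 4 mesothelial and 2 brown adipocyte genes were called higher in white adipose and 1 macrophage gene higher in liver. In the fed libraries alone 1 macrophage and 1 mesothelial gene were called higher in white adipose, and 2 lymphocyte and 1 mesothelial gene higher in liver. Over all 21938 protein-coding genes the calls for liver and white adipose numbered 1859 and 1952 fed, and 1664 and 1789 fasting. The small counts of the marker lists were not tested against these shares. Ucp1, which defines brown fat, had a peak in fed white adipose alone, at rank 9.98, and Cd3e of T cells and Clec4f of Kupffer cells had none in any of the 4. Of stellate cell genes Lrat was called higher in liver and Des and Ngfr higher in white adipose, and Spp1 was the only cholangiocyte gene called, higher in liver. At equal depth Dpt, Dcn, Des and Lrat were called as above, whereas Ly6a, Ngfr and Spp1 were not, and Tie1 and Stab2 of endothelium and Reln of stellate cells were called higher in liver. Of the muscle genes, Acta1 and Tnnt3 were called higher in white adipose and Myh4 in liver, and at equal depth Actn3 was called higher in white adipose and Tnnt3 was not called. Of the 8 epididymal genes, 5 were called higher in white adipose in the fed and 1 in the fasting libraries. The gene Lcn5 ranked 88.2 in fed and 20.1 in fasting white adipose. The part of these cells in the specific regions was not tested.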

How the data were processed

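ATAC-Seq peak lists of 4 libraries (liver and white adipose, fed and fasting) were analysed, and 12 libraries of the other organs were used to describe the regions found. Per the labels and the study's methods, the authors trimmed reads, aligned them to GRCm38 with Bowtie2, removed duplicates and mitochondrial reads, shifted cut sites, called peaks with MACS2 for each library at a p-value threshold of 0.01, kept the strongest rows up to a fixed number and left out blacklisted regions. The tools and build are those of the submitters' processing notes, which give no versions. The deposited lists give fold enrichment over the local background as a ratio, and −log10 p and −log10 q values. No read totals are listed, so tags at each summit were recovered from fold and p (a whole number gave back −log10 p within 0.001 for at least 97.9% of the regions of each library), which gave the relative depth. At equal depth, tags and expected tags were scaled to the lowest background and a Poisson p below 1e-05 was required. The same threshold on unscaled tags, added after seeing the data, shows what the threshold alone changes.

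Rows of the same interval were reduced to the strongest. Regions overlapping by 1 bp were merged, and starts came from GENCODE M21, whereas the study used a later release. Promoter ranks are percentiles by p-value. Sets were compared by counts with exact binomial intervals and no p-values, and the rules for named genes took list genes, the 8 strongest specific regions and promoters a tissue, 10 nearby genes and 4 shared regions a direction. A few named items are not reported here. Functions were tested on simulated data. The members, gene lists (13 function and 12 marker lists, Tf not found) and motifs were chosen with earlier results of these data known. Python 3.11.15, pandas 2.3.3, scipy 1.17.1 and bedtools 2.31.1 were used.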

Additional observations from a re-analysis of the deposited data

How the results depend on the processing

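The promoter counts of 860 for liver and 899 for white adipose stayed within 1.5 times at equal depth (1050 and 766), with ranking by fold enrichment, on autosomes and with summits within 3000 bp of a start. A gap of 40 points left 546 and 433. The p threshold of the equal-depth setting without scaling left white adipose 1475. With the fed libraries alone the counts were 1859 and 1952, and with the fasting libraries alone 1664 and 1789. The call over both states does not use the pairing by mice, and no paired test was run. Both tissues of a feeding state were taken from 1 set of mice, and the fed-only and fasting-only values are the comparisons within those pairs.

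The numbers of liver-specific and white adipose-specific regions were 14001 and 17360 at a −log10 q of at least 6, 8993 and 5780 among the 50000 strongest regions, 126186 and 93794 in the fed and 93318 and 80453 in the fasting libraries alone. At equal depth of the regions white adipose had 11432, and with the absence judged at equal depth as well 14907. The promoter shares were 27.9% and 24.3% at the stricter q, 27.9% and 23.1% in the 50000 strongest, 27.0% and 23.4% at equal depth, 28.0% and 25.2% with the absence at equal depth, 26.8% and 26.7% at the p threshold without scaling, 18.9% and 18.99% at protein-coding starts, and 11.6% and 13.7% within 1000 bp.

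The shared regions higher in liver and in white adipose numbered 708 and 10 at the stricter q, 23 and 0 in the 50000 strongest, 327 and 431 at equal depth, 16723 and 5779 fed, 9435 and 7443 fasting, and 619 and 131 at a gap of 40 points. The p threshold without scaling gave white adipose 511. Genes with a nearby region were 8039 and 5833 in the 50000 strongest and 7850 and 7897 within 10 kb. At the same p threshold white adipose had 34401 regions without and 14907 with the scaling. The cause of the other changes was not tested. The equal-depth promoters and lists, the absence at equal depth, the threshold without scaling and the list counts by state were chosen after seeing the data. Depth and tissue cannot be told apart, white adipose having the deeper libraries, and 1 pooled library a tissue and state leaves animal variation unmeasured.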
